A study of Rattus norvegicus with 10 samples.

Results

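Genes of the hypoxia response and of glycolysis were followed in JUG2 cells, a line of rat enteric glia, with and without forced expression of the transcription factor SOX10. The 34 genes were listed by name from what is known of oxygen-dependent transcription and sugar breakdown, and each was found in the array table under 1 transcript cluster (the set of probes that reports 1 gene), out of 15438 named genes in all. The list does not rest on the measured values, although earlier results of these data were known when it was drawn up.

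The study asked which genes respond to SOX10 in enteric glia, the supporting cells of the gut's own nervous system. JUG2 cells, derived from a primary culture of the rat enteric nervous system, were transduced with lentiviral vectors for a tetracycline transactivator and for either Sox10 or GFP under a promoter that needs doxycycline. In the SOX10 +dox group, SOX10 cells received 1 µg/ml doxycycline for 48 h, and the SOX10 -dox group held untreated cells of the same line. In the GFP +dox group, cells of the GFP line received the same treatment, and the GFP -dox group held untreated GFP cells. All 4 groups carry the vectors, so none of them is an unmodified parent line. The sources used here do not say whether either line goes back to 1 clone. RNA was taken from whole cultures, so that fewer cells making a transcript and less transcript per cell cannot be told apart.

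Expression was measured on 10 Clariom S arrays, 4 for each SOX10 group and 1 for each GFP group, and the values are log2 signals, in which a difference of 1 is a 2-fold difference. Array medians ranged from 6.69 to 6.86. Sox10 itself had log2 signals of 12.93, 12.62 and 13.02 in SOX10 +dox replicates 2, 3 and 4, against 6.39, 6.11 and 6.43 in SOX10 -dox replicates 2, 3 and 4. In replicate 1, however, Sox10 had a signal of 6.74 on the array labelled SOX10 +dox and 12.90 on its -dox counterpart, which goes against both labels. The labels were kept and the arrays were not exchanged. Comparisons therefore rest on replicates 2 to 4 (n = 3 per group), replicate 1 is given apart, and results with all 8 SOX10 arrays as labelled stand beside the main ones. In untreated cells Sox10, as above, S100b (5.20, 5.78 and 5.59 in SOX10 -dox cells) and Gfap (5.45, 5.63 and 5.81) lay below the array medians. The mean log2 signal of 9 enteric glial markers, these included, was above the medians, at 7.81, 7.95 and 8.14 in SOX10 -dox replicates 2, 3 and 4. The study describes JUG2 cells as dedifferentiated, with low GFAP, S100B and SOX10 but still positive for Nestin. The glial label is taken here from the origin of the line. Of 9 enteric glial markers, 5 were called higher in SOX10 +dox cells by the rule given below, beside 2.26% of all transcript clusters. These were Sox10, which the construct induces, and Erbb3, S100b, Nes and Ngfr. Gfap had log2 signals of 5.83, 6.30 and 5.44 in SOX10 +dox cells and was not called. Of 9 macrophage markers, Mpeg1 alone was called higher in SOX10 +dox cells, beside the same 2.26% of all transcript clusters. The mean log2 signal of the list was 5.17, 5.09 and 5.50 in SOX10 +dox cells against 4.53, 4.52 and 4.57 in SOX10 -dox cells. Mpeg1 itself differed by 5.24 to 5.63 over fits with 1 array left out, while the median difference of the list was 0.15. Ptprc, which defines leukocytes, averaged 3.69 ± 0.22 in SOX10 +dox cells and 3.63 ± 0.33 in SOX10 -dox cells (log2 signal, SD, n = 3 each). No marker of endothelial, smooth muscle, fibroblast or neuronal cells on the lists was called. At an unadjusted limma p under 0.05, 1 of 7 endothelial and 2 of 6 neuronal markers were higher (7.23% of all transcript clusters). At the same level 1 of 8 smooth muscle and fibroblast markers was lower (7.55% of all transcript clusters).

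Cells read the oxygen level through prolyl hydroxylases of the EGLN family. With oxygen present, these enzymes mark the alpha subunits of the hypoxia-inducible factors (HIF), Hif1a and Epas1, for capture by the VHL protein and breakdown. When oxygen is scarce the alpha subunits persist, pair with Arnt and bind short DNA motifs near genes for glucose uptake, glycolysis, lactate production, pH control, blood vessel growth and collagen modification. The alpha subunits are thus controlled largely at the protein level, which an RNA array does not measure. In glia, glycolysis and lactate release are known for their part in the supply of neurons and axons.

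The core of the HIF motif reads ACGTG or GCGTG. Promoter sequence (250 bases upstream of the annotated start, RefSeq, GRCr8) was found for 32 of the 34 genes, not for Ndrg1 and Pgk1. A match to ACGTG or GCGTG on either strand was present in 19 of these 32 promoters (59.4%), compared with 7957 of 18999 promoters of all protein-coding genes (41.9%). The mean number of separate matches was 1.47 in the 32 promoters and 0.665 in all promoters. Where CACGTG occurs, it reads ACGTG on both strands and was counted as 1 separate match. The promoters of Vegfa, P4ha2 and Plod2 are shown because these genes had the smallest adjusted p among the genes that were lower in SOX10 +dox cells. Plod2 was added after its values were seen. Capitals mark the matches, which on the reverse strand read CACGT or CACGC.
Vegfa: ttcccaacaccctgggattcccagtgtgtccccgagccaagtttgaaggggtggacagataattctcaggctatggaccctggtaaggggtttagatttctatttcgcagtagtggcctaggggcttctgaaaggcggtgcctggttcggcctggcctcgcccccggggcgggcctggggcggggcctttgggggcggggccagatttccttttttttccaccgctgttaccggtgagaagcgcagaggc
P4ha2: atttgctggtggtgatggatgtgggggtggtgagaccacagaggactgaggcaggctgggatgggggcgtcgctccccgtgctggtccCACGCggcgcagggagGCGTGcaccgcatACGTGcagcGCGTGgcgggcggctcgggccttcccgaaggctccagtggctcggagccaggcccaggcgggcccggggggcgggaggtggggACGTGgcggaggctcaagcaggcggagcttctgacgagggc
Plod2: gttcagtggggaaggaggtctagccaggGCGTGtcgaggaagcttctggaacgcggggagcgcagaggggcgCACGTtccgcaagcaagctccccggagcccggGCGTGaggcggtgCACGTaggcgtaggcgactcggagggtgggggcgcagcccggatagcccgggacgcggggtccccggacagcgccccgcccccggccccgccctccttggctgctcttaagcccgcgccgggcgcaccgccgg
The Vegfa sequence lies at chr9:22452604-22452853 (plus strand) and held no match, which says only that these letters are not in this window. The P4ha2 sequence, at chr10:38743644-38743893 (plus strand), held 5 matches, which began 162, 146, 133, 124 and 41 bases upstream of the start. The Plod2 sequence, at chr8:101964068-101964317 (plus strand), held 4, which began 222, 178, 146 and 133 bases upstream. A match describes the letters of the sequence and is not a site of factor binding.

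Few of the 34 genes passed the rule for a call. A gene was called when its Benjamini-Hochberg adjusted p, from limma across all 23188 transcript clusters, was under 0.05 and its difference at least 2-fold. By this rule 1 gene was higher in SOX10 +dox cells, the differentiation and stress gene Ndrg1, and 2 were lower, the angiogenic factor Vegfa and the collagen prolyl hydroxylase subunit P4ha2. Of the 34 genes 2.94% were thus called higher, beside 2.26% of all transcript clusters, and 5.88% lower, beside 1.24%. Either way, 3 of 34 genes and 3.5% of all transcript clusters were called. Before adjustment, 9 genes had a p under 0.05, 3 of them on the higher side (8.82%, against 7.23% of all transcript clusters) and 6 on the lower side (17.6%, against 7.55%). Plod2 had an adjusted p under 0.05 but a difference just under 2-fold. Without the fold minimum, 1 gene (2.94%, background 2.4%) was higher and 3 (8.82%, background 1.45%) were lower. The median difference of the 34 genes was -0.21 on the log2 scale, against -0.02 over all transcript clusters. With all 8 SOX10 arrays as labelled, none of the 34 genes and no transcript cluster was called by limma. Sox10 itself, the induced gene, was not called there either (3.37 ± 1.63, adjusted p = 0.973). No adjusted p fell below 0.973 in that comparison, and before adjustment 3 of the 34 genes (8.82%) and 863 transcript clusters (3.72%) had a p under 0.05.

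Counts of direction showed more genes on the lower side. In each of replicates 2, 3 and 4 taken on its own, 15 of the 34 genes (44.1%) were lower in the +dox culture, compared with 22.3% of all transcript clusters. In the opposite direction, 5 of 34 (14.7%) were higher in each culture, compared with 18.7% of all clusters: Aldoa, Kdm3a, Ldha, Ndrg1 and Pfkl. The signals of the SOX10 +dox arrays lay wholly below those of the SOX10 -dox arrays for 9 genes (26.5%, background 10.5%), namely Vegfa, P4ha2, Plod2, Slc2a1, Hk2, Eno1, Pkm, Pfkfb3 and Bhlhe40. They lay wholly above for 3 genes, Ndrg1, Ldha and Kdm3a (8.82%, background 9.5%). Other lists also ran to the lower side: 12 of 28 genes of pyruvate oxidation and the citric acid cycle, 7 of 12 housekeeping genes, 12 of 18 genes of amino acid and unfolded protein stress and 13 of 16 cell cycle genes were lower in each culture. The count of 15 of 34 is thus not particular to the hypoxia and glycolysis genes. These counts describe the lists and carry no test. In replicate 1 as labelled, the sign was opposite to that of the fitted difference for 26 of the 34 genes. The same count was not made over all transcript clusters. Of the 812 clusters called either way, 804 had the opposite sign in replicate 1 as labelled.

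**Figure D1:**
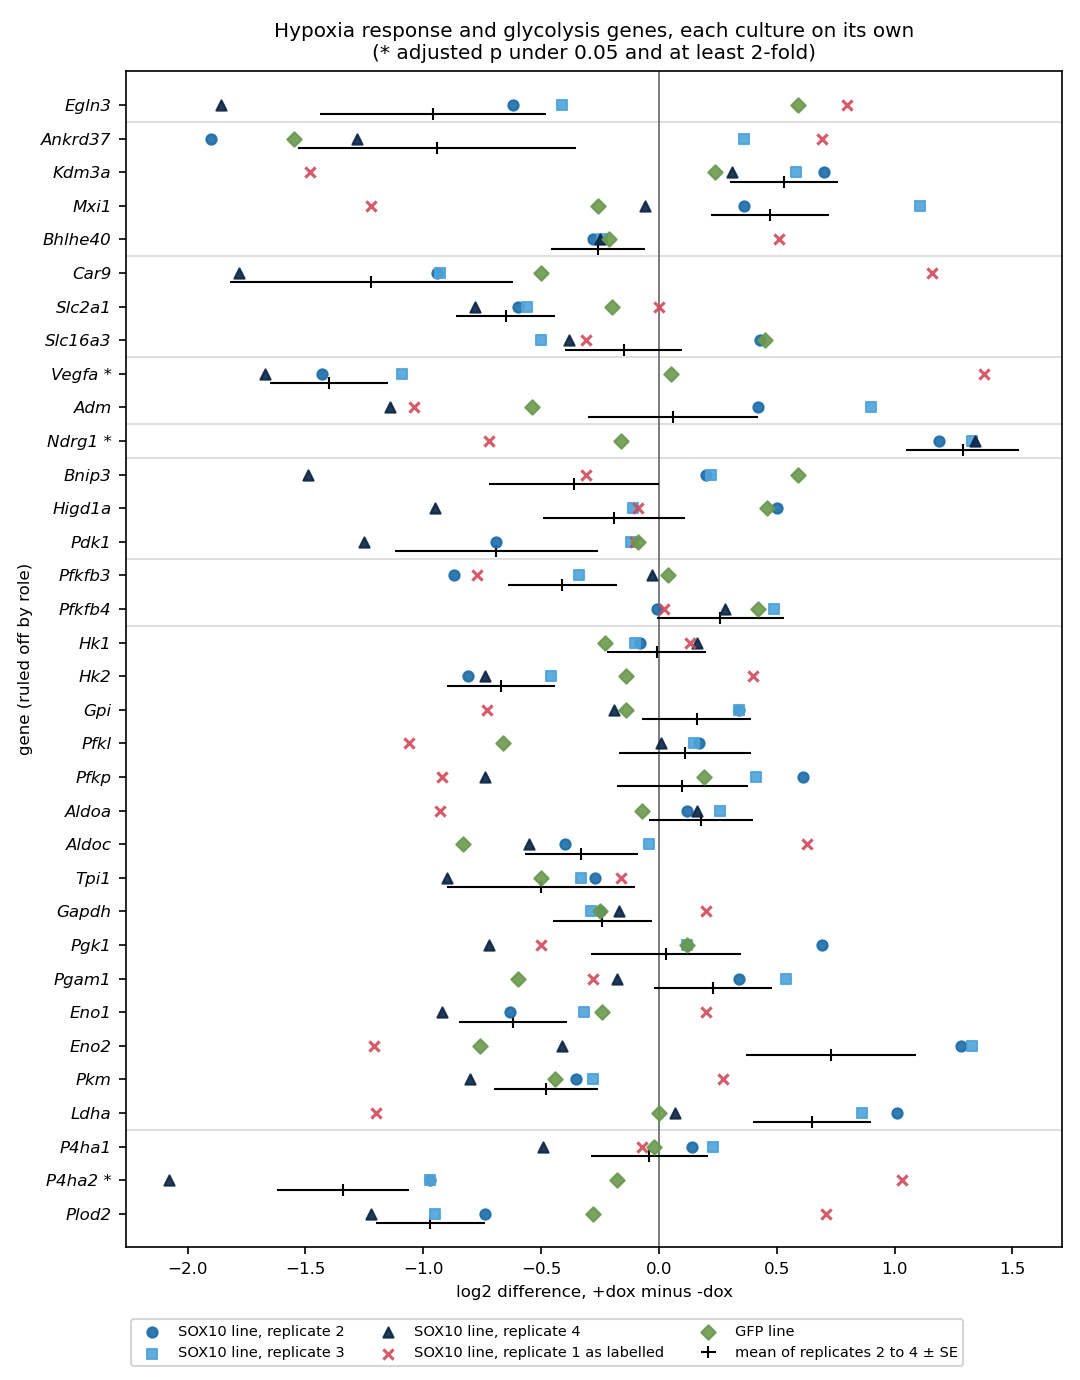
Difference in log2 signal, +dox minus -dox, for each of the 34 genes (rows, ruled off by role) in each SOX10 culture and in the GFP line. Black bars give the mean of replicates 2 to 4 with its standard error, and asterisks mark the called genes. Vegfa, P4ha2 and Plod2 lie left of zero and Ndrg1 right of zero in all of replicates 2 to 4, with replicate 1 as labelled on the other side.

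Among the secreted factors, Vegfa, the main growth factor of blood vessels, was 2.63-fold lower. Its log2 signals were 13.02, 13.49 and 13.41 in SOX10 +dox replicates 2, 3 and 4, against 14.44, 14.58 and 15.08 in SOX10 -dox replicates 2, 3 and 4. Every SOX10 +dox signal lay below every SOX10 -dox signal. The difference was -1.40 ± 0.25 (log2, standard error, n = 3 per group, adjusted p = 0.00911). Without SOX10 +dox replicate 2 the adjusted p was 0.0513, and over the other arrays left out in turn it remained under 0.05. In replicate 1, the array labelled SOX10 +dox had 14.11 and the array labelled SOX10 -dox had 12.73. The GFP line had 14.92 with and 14.87 without doxycycline, close to untreated SOX10 cells. Set against this change in the GFP line, the difference of effects was -1.45 ± 0.50, which did not pass the adjusted threshold (adjusted p = 0.397). Adm, which encodes the vasodilator peptide adrenomedullin, had a difference of 0.06 ± 0.36 (adjusted p = 0.967). The 3 cultures did not share a direction for Adm, at 0.42, 0.90 and -1.14 in replicates 2, 3 and 4.

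Ndrg1 was the only called gene that was higher in SOX10 +dox cells. It is induced by low oxygen and by differentiation, and loss of the human gene causes a demyelinating neuropathy. Its log2 signals were 10.57, 10.26 and 10.17 in SOX10 +dox replicates 2, 3 and 4, against 9.38, 8.93 and 8.84 in SOX10 -dox replicates 2, 3 and 4. The groups did not overlap, and the 3 cultures differed by nearly the same amount, 1.19, 1.33 and 1.34. The fitted difference was 1.29 ± 0.24, or 2.44-fold (adjusted p = 0.0107). Leaving out SOX10 +dox replicate 2 gave an adjusted p of 0.0609 and leaving out SOX10 -dox replicate 3 gave 0.058. In the GFP line Ndrg1 had 8.68 with and 8.84 without doxycycline. The difference of effects between the lines was 1.45 ± 0.47 (adjusted p = 0.376). In replicate 1, the array labelled SOX10 +dox had 8.97 and the array labelled SOX10 -dox had 9.68.

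Of the 3 collagen hydroxylases, 1 was called. P4ha1 and P4ha2 are catalytic subunits of collagen prolyl hydroxylase, which stabilises the triple helix, and Plod2 is a lysyl hydroxylase that prepares collagen for cross-linking. P4ha2 had log2 signals of 9.04, 9.29 and 8.96 in SOX10 +dox replicates 2, 3 and 4, against 10.01, 10.25 and 11.04 in SOX10 -dox replicates 2, 3 and 4. Its groups did not overlap, and replicate 4 differed most, at -2.08 against -0.97 in each of replicates 2 and 3. The fitted difference was -1.34 ± 0.28, or 2.53-fold lower (adjusted p = 0.0221). This call was held only when SOX10 -dox replicate 2 was the array left out. With any 1 of the other 5 SOX10 arrays of replicates 2 to 4 left out, the adjusted p lay between 0.0512 and 0.0892. Without replicate 4 of both groups the difference was -0.97 with an adjusted p of 0.0633.

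Plod2 had log2 signals of 15.49, 15.24 and 15.48 in SOX10 +dox cells, against 16.23, 16.19 and 16.71 in SOX10 -dox cells. The groups did not overlap, at a difference of -0.97 ± 0.23 (1.96-fold, adjusted p = 0.0409). With each array left out in turn its adjusted p was between 0.0562 and 0.169. P4ha1 had a difference of -0.04 ± 0.25 (adjusted p = 0.97), and its groups overlapped. In the GFP line the differences were -0.02 for P4ha1, -0.18 for P4ha2 and -0.28 for Plod2.

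**Figure D2:**
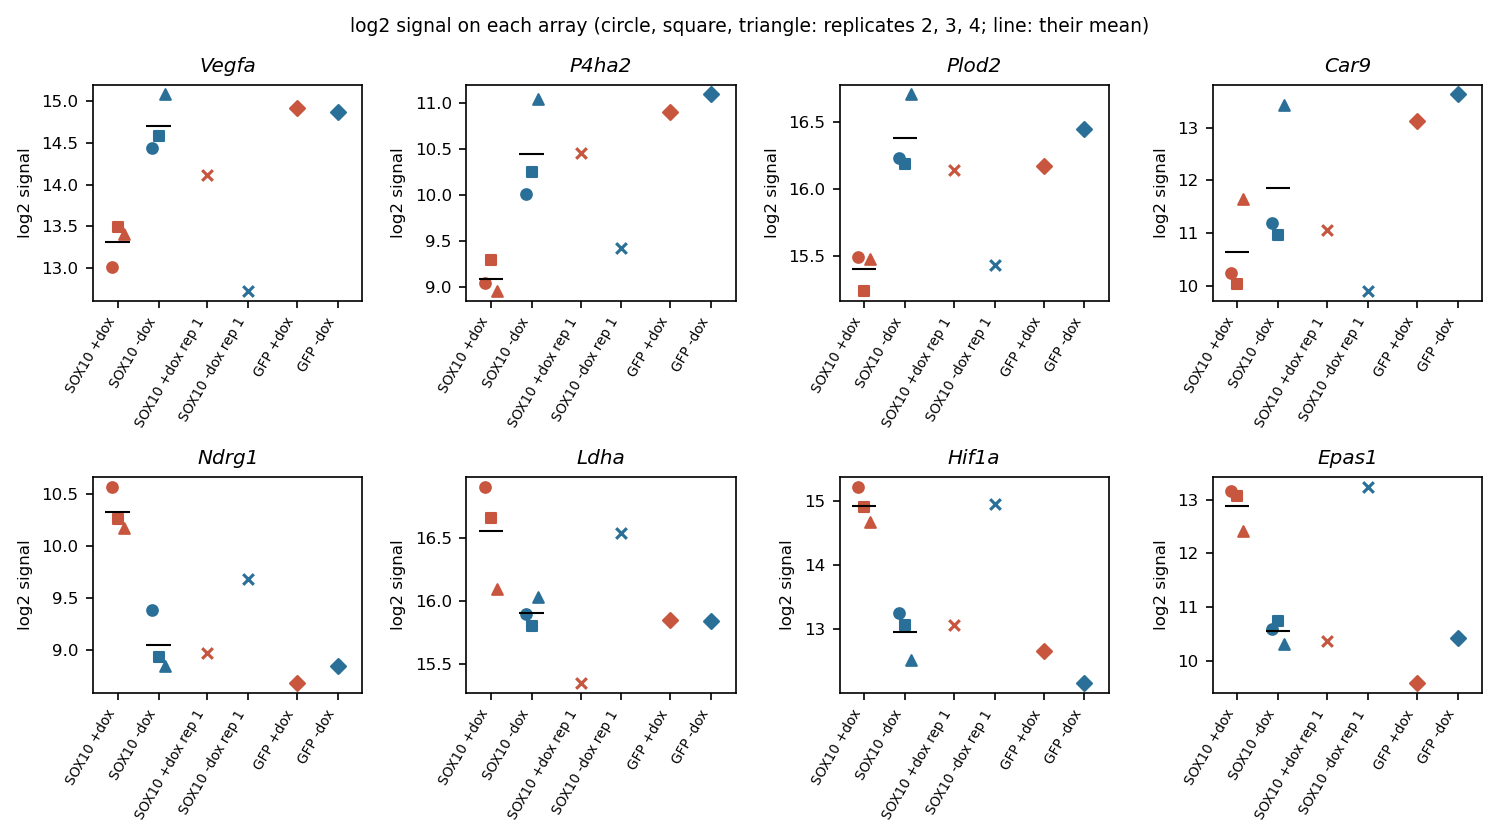
Log2 signal on each of the 10 arrays for 6 of the 34 genes and for Hif1a and Epas1, with +dox in orange and -dox in blue. Circles, squares and triangles are replicates 2, 3 and 4 of the SOX10 line with their mean as a line, crosses are replicate 1 as labelled, and diamonds are the GFP line. As labelled, replicate 1 differs in the opposite direction to replicates 2 to 4 for Vegfa, P4ha2, Plod2, Car9, Ndrg1, Ldha, Hif1a and Epas1. The Car9 signal labelled +dox lies within the SOX10 +dox range, and the Ndrg1 signal labelled -dox lies between the groups.

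The genes of pH control and transport were not called. Car9, a carbonic anhydrase at the cell surface and a widely used mark of hypoxia, had log2 signals of 10.24, 10.03 and 11.65 in SOX10 +dox replicates 2, 3 and 4, against 11.19, 10.96 and 13.43 in SOX10 -dox replicates 2, 3 and 4. Both replicate 4 arrays stood above the replicates 2 and 3 of their own group, so the groups overlapped, although each culture on its own was lower with doxycycline (-0.94, -0.93 and -1.78). The fit without pairing gave -1.22 ± 0.60 (adjusted p = 0.395). With the replicate number as a block, the same difference had an adjusted p of 0.0138 and would be called lower. That fit called 1 of the 34 genes higher (2.94%) and 3 lower (8.82%). Of all 23188 transcript clusters it called 637 higher and 375 lower, or 4.36% either way. Without SOX10 -dox replicate 4 the unpaired difference was -0.43. Car9 had 13.13 in GFP +dox cells and 13.63 in GFP -dox cells, near the highest SOX10 -dox signal. Slc2a1, the glucose transporter GLUT1, had 10.63, 10.53 and 10.65 in SOX10 +dox cells and 11.23, 11.09 and 11.43 in SOX10 -dox cells. These groups did not overlap, and the difference of -0.65 ± 0.21 did not pass (adjusted p = 0.147). Slc16a3, the lactate exporter MCT4, had a difference of -0.15 ± 0.25 (adjusted p = 0.857).

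Egln3, the oxygen-sensing hydroxylase whose own gene answers to HIF, had log2 signals of 5.42, 5.55 and 6.16 in SOX10 +dox cells and 6.04, 5.95 and 8.02 in SOX10 -dox cells. SOX10 -dox replicate 4 stood apart above both others of its group. The difference of -0.96 ± 0.48 did not pass (adjusted p = 0.394). Ankrd37, a HIF-responsive ankyrin repeat gene, varied widely within the untreated group, at 6.65, 4.72 and 7.46 in SOX10 -dox cells beside 4.75, 5.08 and 6.17 in SOX10 +dox cells. Its difference was -0.94 ± 0.59 (adjusted p = 0.531). The table holds no detection calls, so for Egln3, Ankrd37 and Slc16a3, with signals below the array medians on most or all arrays, expression above background was not tested.

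Of the genes for transcription and chromatin factors, Kdm3a, a histone demethylase, had 12.28, 12.41 and 12.47 in SOX10 +dox cells and 11.57, 11.83 and 12.16 in SOX10 -dox cells. It was higher in each culture without passing (0.53 ± 0.23, adjusted p = 0.307). Mxi1, an antagonist of MYC, had a difference of 0.47 ± 0.25 (adjusted p = 0.445). Bhlhe40, a transcriptional repressor, had -0.26 ± 0.20 (adjusted p = 0.646). Although small, the Bhlhe40 difference was nearly the same in each culture, at -0.28, -0.24 and -0.25, and the groups did not overlap.

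The mitochondrial genes Bnip3 (a receptor for mitophagy), Higd1a (a protein of the inner mitochondrial membrane) and Pdk1 (the kinase that inhibits pyruvate dehydrogenase) were not called. Bnip3 had 8.97, 8.81 and 8.65 in SOX10 +dox replicates 2, 3 and 4, against 8.77, 8.59 and 10.14 in SOX10 -dox replicates 2, 3 and 4. Replicates 2 and 3 differed by 0.20 and 0.22, and replicate 4 by -1.49. Pdk1 had 11.09, 11.11 and 11.90 in SOX10 +dox cells and 11.78, 11.23 and 13.15 in SOX10 -dox cells. Its difference was -0.69 ± 0.43 (adjusted p = 0.531). The Higd1a difference of -0.19 ± 0.30 (adjusted p = 0.852) was 0.50 in replicate 2, -0.11 in replicate 3 and -0.95 in replicate 4. Of the enzymes that set the level of the activator of phosphofructokinase, Pfkfb3 had a difference of -0.41 ± 0.23 (adjusted p = 0.46) and Pfkfb4 of 0.26 ± 0.27 (adjusted p = 0.751).

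The enzymes of glycolysis itself showed no call in either direction among 15 genes by limma. Before adjustment 1 enzyme had a p under 0.05 on the higher side (7.23% of all transcript clusters) and 2 on the lower side (7.55%). Their median difference was 0.03 on the log2 scale. At the entry of the pathway, hexokinase 2 (Hk2) had log2 signals of 12.72, 13.04 and 13.13 in SOX10 +dox cells and 13.53, 13.50 and 13.87 in SOX10 -dox cells. The Hk2 groups did not overlap, and the difference of -0.67 ± 0.23 did not pass (adjusted p = 0.164). Hk1, the more widely expressed hexokinase, had -0.01 ± 0.21 (adjusted p = 0.995). At the exit, Ldha, which turns pyruvate into lactate, pointed the other way. It had 16.91, 16.66 and 16.10 in SOX10 +dox replicates 2, 3 and 4, against 15.90, 15.80 and 16.03 in SOX10 -dox replicates 2, 3 and 4. The Ldha groups did not overlap, but replicate 4 differed by only 0.07, compared with 1.01 and 0.86 in replicates 2 and 3, and the fitted 0.65 ± 0.25 did not pass (adjusted p = 0.246).

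Between these steps the signs were mixed. Differences were 0.16 for Gpi (glucose phosphate isomerase), 0.11 for Pfkl and 0.10 for Pfkp (phosphofructokinase subunits), and 0.18 for Aldoa and -0.33 for Aldoc (aldolases). Further down they were -0.50 for Tpi1 (triosephosphate isomerase), -0.24 for Gapdh, 0.03 for Pgk1 (phosphoglycerate kinase) and 0.23 for Pgam1 (phosphoglycerate mutase). The adjusted p of these 9 genes lay between 0.606 and 0.98. The enolases ran apart, with Eno1 at -0.62 ± 0.23 (adjusted p = 0.22) and Eno2, the form known from neurons, at 0.73 ± 0.36 (adjusted p = 0.392). Eno2 was higher in replicates 2 and 3 (1.28 and 1.33) and not in replicate 4 (-0.41). Pkm, pyruvate kinase, had -0.48 ± 0.22 (adjusted p = 0.341), with groups that did not overlap. Gapdh, Tpi1, Eno1 and Pgk1 have processed pseudogenes in mammalian genomes, and whether these probes tell them from the parent genes was not tested.

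Replicate 4 stood apart for many of the 34 genes. SOX10 -dox replicate 4 lay above both other SOX10 -dox arrays for 27 of the 34 genes (79.4%, background 37.9%), and at least 2-fold above them for 7 genes (20.6%, background 0.992%), namely Car9, Egln3, Pdk1, Bnip3, Adm, Tpi1 and Pgk1. Tpi1 had 13.55, 13.16 and 14.21 in SOX10 +dox replicates 2, 3 and 4 and 13.82, 13.49 and 15.11 in SOX10 -dox replicates 2, 3 and 4. Pgk1 had 13.82, 13.24 and 13.53 in SOX10 +dox cells and 13.13, 13.12 and 14.25 in SOX10 -dox cells. Over the 34 genes as a whole, the treated array of replicate 4 did not stand out in the same way. SOX10 +dox replicate 4 lay above both other SOX10 +dox arrays for 12 of 34 genes (35.3%, background 40.3%). These included Car9, Egln3, Pdk1 and Tpi1 of the genes just named, and not Bnip3, Adm or Pgk1. The difference in replicate 4 was lower by 1 or more (log2) than the mean of replicates 2 and 3 for 8 genes (23.5%, background 3.24%) and higher by that much for 0 (background 3.86%). Without SOX10 -dox replicate 4, the fitted differences of genes that were not called were -0.29 for Egln3, -0.35 for Ankrd37, -0.14 for Pdk1 and -0.01 for Tpi1. The cultures' medians over the 34 genes were -0.05, -0.07 and -0.63 in replicates 2, 3 and 4.

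Both GFP arrays also lay above SOX10 -dox replicates 2 and 3 for 17 of the 34 genes (50%, background 22.6%). Other lists moved with replicate 4. The mean log2 signal of 16 cell cycle genes was 11.36, 11.11 and 10.44 in SOX10 +dox replicates 2, 3 and 4 and 11.92, 11.81 and 10.97 in SOX10 -dox replicates 2, 3 and 4, and was 10.76 in GFP +dox and 11.01 in GFP -dox cells. For 12 housekeeping genes it was 13.90, 13.61 and 13.13 in SOX10 +dox cells, 14.03, 14.00 and 13.54 in SOX10 -dox cells, 13.46 in GFP +dox and 13.53 in GFP -dox cells. Both replicate 4 arrays and both GFP arrays thus lay below SOX10 -dox replicates 2 and 3 for these lists. SOX10 +dox replicates 2 and 3 also lay below them, by less. For the housekeeping genes so did both replicate 1 arrays, at 13.48 on the array labelled +dox and 13.30 on that labelled -dox. The part of these lists in the values of the 34 genes was not tested. By the study's methods the cells were kept in DMEM with serum under air with added carbon dioxide, and no low-oxygen condition was part of the design.

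**Figure D3:**
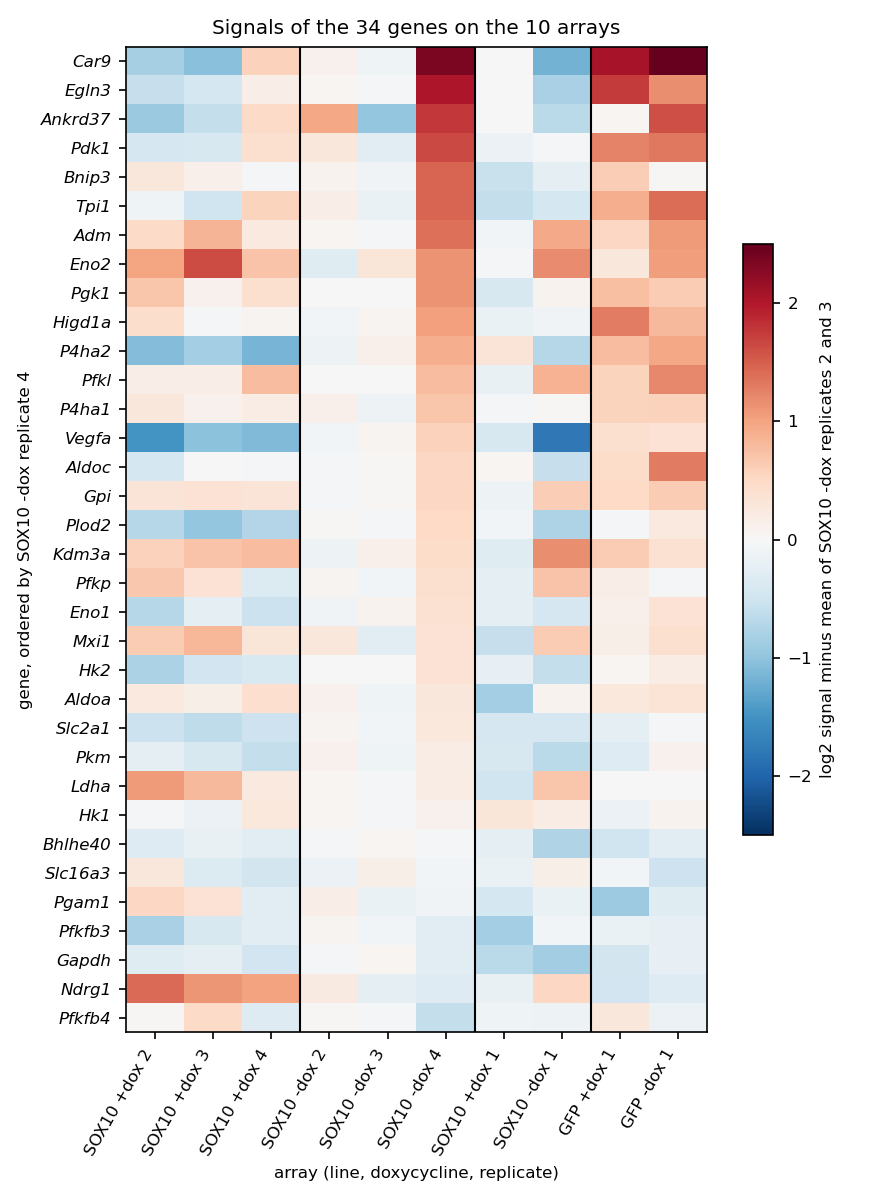
Log2 signal of each of the 34 genes (rows) on each array (columns), minus the mean of SOX10 -dox replicates 2 and 3, with red above and blue below that mean. Rows are ordered by SOX10 -dox replicate 4, which lies above both other SOX10 -dox arrays for 27 of the 34 genes.

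The GFP line served to set apart effects of doxycycline. With 1 array per GFP group there is no replicate check of that line. GFP +dox and GFP -dox cells were at least 2-fold apart for 1 of the 34 genes (2.94%), Ankrd37 at -1.55, compared with 5.93% of all transcript clusters. The median difference of the 34 genes in the GFP line was -0.17. When the effect in the GFP line was subtracted from that in the SOX10 line, under the assumption that GFP arrays vary like SOX10 arrays, none of the 34 genes was called by limma and 2 (Vegfa and Ndrg1) had an unadjusted p under 0.05 (5.88%, against 9.04% of all transcript clusters). Of all transcript clusters, 0.358% were called higher and 0.0259% lower in this comparison.

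The 34 genes were listed for the hypoxia response or for glycolysis, and the genes of HIF itself were examined next. Of 13 measured genes for HIF subunits, hydroxylases and partners, 2 were higher and 1 was lower in SOX10 +dox cells. The background for this list and those that follow is the share of all transcript clusters called, 2.26% higher and 1.24% lower. Epas1, which encodes HIF-2 alpha, had log2 signals of 13.15, 13.06 and 12.42 in SOX10 +dox replicates 2, 3 and 4, against 10.61, 10.74 and 10.32 in SOX10 -dox replicates 2, 3 and 4. The groups were far apart, and the difference was 2.32 ± 0.26, or 4.99-fold (adjusted p = 0.000458). In the GFP line Epas1 had 9.60 with and 10.43 without doxycycline, and the difference of effects was 3.15 ± 0.51 (adjusted p = 0.0288). Hif1a had 15.23, 14.91 and 14.67 in SOX10 +dox cells, against 13.25, 13.07 and 12.52 in SOX10 -dox cells. Every SOX10 +dox signal lay above every SOX10 -dox signal, at a difference of 1.99 ± 0.26, or 3.97-fold (adjusted p = 0.00138). In the GFP line Hif1a had 12.66 with and 12.16 without doxycycline, and the difference of effects was 1.50 ± 0.52 (adjusted p = 0.408). Both genes were called with any 1 of the arrays left out. In replicate 1, the array labelled SOX10 +dox had 13.06 for Hif1a and 10.38 for Epas1, while its labelled -dox counterpart had 14.95 for Hif1a and 13.24 for Epas1.

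Arnt, the partner of both alpha subunits, had a difference of -0.06 ± 0.22 (adjusted p = 0.947). Its relative Arnt2 was lower, with 7.15, 6.44 and 6.96 in SOX10 +dox cells and 7.99, 7.93 and 8.27 in SOX10 -dox cells. The Arnt2 groups did not overlap (-1.21 ± 0.25, adjusted p = 0.0188), but the call was lost in 4 of 6 fits with 1 array left out (highest adjusted p = 0.0894). Vhl had a difference of 1.06 ± 0.26 with an adjusted p of 0.0526, and of 0.0222 with the replicate block. No other gene of this list was called, among them Hif1an, which encodes the asparagine hydroxylase of HIF (0.47 ± 0.25, adjusted p = 0.423).

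Among 37 other hypoxia-responsive genes measured, 1 was higher and 3 were lower, with a median difference of -0.06. Gbe1, the glycogen branching enzyme, had 11.81, 11.87 and 11.17 in SOX10 +dox cells and 9.62, 8.97 and 9.40 in SOX10 -dox cells. It was the higher one (2.29 ± 0.27, 4.88-fold, adjusted p = 0.000695). Ddit4, an inhibitor of mTOR signalling induced by stress, had 7.80, 7.05 and 7.24 in SOX10 +dox cells and 9.11, 8.66 and 9.75 in SOX10 -dox cells. Its groups did not overlap (-1.81 ± 0.31, 3.51-fold, adjusted p = 0.00719). Loxl2, which encodes a lysyl oxidase that cross-links collagen, was lower by a difference of -1.10 (adjusted p = 0.0361), and Zfp395, a zinc finger gene, by -1.09 (adjusted p = 0.0382). Both were called in only 1 of the 6 fits with 1 array left out. With the replicate block, Gys1 (-1.05, adjusted p = 0.0154, unpaired 0.348) and Stc1 (-1.24, adjusted p = 0.0486, unpaired 0.272) would be added to the lower genes.

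Around glycolysis, 23 further genes of glycolysis and lactate gave 1 higher and 2 lower, with a median difference of -0.01. Ldhb, the lactate dehydrogenase subunit that favours lactate use, had 9.25, 9.12 and 9.13 in SOX10 +dox cells and 7.97, 8.30 and 8.12 in SOX10 -dox cells (1.04 ± 0.21, adjusted p = 0.0187). Slc2a3, the glucose transporter GLUT3, had 7.85, 7.90 and 8.84 in SOX10 +dox cells and 9.56, 9.57 and 11.53 in SOX10 -dox cells (-2.02 ± 0.48, 4.06-fold, adjusted p = 0.0433). Groups of neither gene overlapped, but Ldhb was called in 1 and Slc2a3 in 2 of the 6 fits with 1 array left out. Eno3, the muscle form of enolase, was lower (10.17, 10.32 and 10.23 in SOX10 +dox cells against 11.53, 11.24 and 10.96 in SOX10 -dox cells, adjusted p = 0.0318), also held in 1 of 6 fits. Slc16a1, the lactate transporter MCT1, had -0.80 ± 0.23 (adjusted p = 0.0984).

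In pyruvate oxidation and the citric acid cycle, 1 of 28 genes was higher and 1 lower. The higher one was Pdk3, a pyruvate dehydrogenase kinase (1.13 ± 0.28, adjusted p = 0.0481), and the lower one Idh2, the mitochondrial NADP-linked isocitrate dehydrogenase (-1.07 ± 0.21, adjusted p = 0.0169). Of 12 genes of the pentose phosphate pathway and glycogen, Taldo1 (transaldolase) was higher and Pgm2 (a phosphopentomutase) lower. Taldo1 had 12.06, 11.72 and 9.84 in SOX10 +dox replicates 2, 3 and 4 and 9.48, 9.38 and 8.51 in SOX10 -dox replicates 2, 3 and 4, so that the groups did not overlap although replicate 4 was the lowest in both (2.08 ± 0.50, adjusted p = 0.0433). Pgm2 had a difference of -1.11 ± 0.23 (adjusted p = 0.0188). Pgm2l1, a relative of Pgm2, reached a call only with the replicate block (1.00, adjusted p = 0.0226, unpaired 0.0554). Of these called genes, Pdk3, Idh2 and Taldo1 kept their call in 1 of the 6 fits with 1 array left out and Pgm2 in 2.

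Vegfa was not the only lower gene of its signalling system. Of 14 ligands and receptors of VEGF and adrenomedullin, 2 were lower and none was higher, beside 1.24% lower and 2.26% higher of all transcript clusters. Before adjustment, none had a limma p under 0.05 on the higher side either. The median difference of this list was -0.19. In each culture 4 of its genes were lower and 2 higher, beside 22.3% and 18.7% of all transcript clusters. Flt1, which encodes a VEGF receptor, had 11.16, 11.13 and 11.80 in SOX10 +dox replicates 2, 3 and 4 and 12.69, 12.52 and 13.41 in SOX10 -dox replicates 2, 3 and 4. Its groups did not overlap (-1.51 ± 0.29, 2.85-fold, adjusted p = 0.0139). Without SOX10 +dox replicate 2 or 3 the Flt1 call was lost (highest adjusted p = 0.0739). Nrp2, a co-receptor, had 13.00, 13.07 and 12.77 in SOX10 +dox cells and 14.17, 14.21 and 13.58 in SOX10 -dox cells (-1.04 ± 0.24, adjusted p = 0.0375), held in 1 of the 6 fits. Flt4 passed the adjusted p at under 2-fold (-0.95 ± 0.22, adjusted p = 0.0373). Vegfd, a lymphatic growth factor, was lower in each culture and was called only with the replicate block (-1.15, adjusted p = 0.00811, unpaired 0.0707).

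Relatives of the 34 genes were compared with them. Among 18 paralogs of the 34 genes, 2 were higher and 1 was lower. Plod1, the lysyl hydroxylase of the collagen helix, had 13.68, 13.77 and 13.43 in SOX10 +dox cells, against 11.05, 11.41 and 11.73 in SOX10 -dox cells. It was thus 4.7-fold higher (2.23 ± 0.24, adjusted p = 0.000397), while its relative Plod2 had the lower signals described above. P4ha3 ran the same way as P4ha2 (-1.08 ± 0.25, adjusted p = 0.0358), and Ndrg2 the same way as Ndrg1 (1.21 ± 0.27, adjusted p = 0.0286). Plod1 was called in all 6 fits with 1 array left out, P4ha3 and Ndrg2 in 1 each. Mxd1, a relative of Mxi1, passed the adjusted p at just under 2-fold (0.99 ± 0.24, adjusted p = 0.0479).

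**Figure D4:**
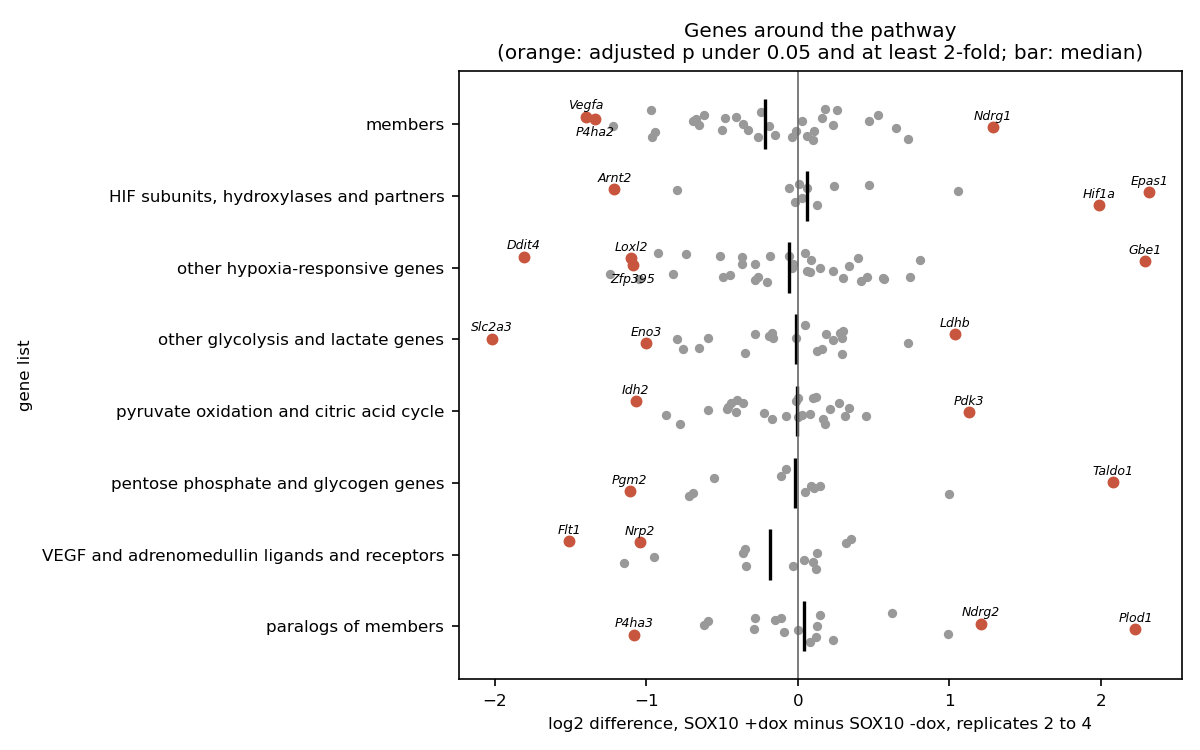
Difference in log2 signal, SOX10 +dox minus SOX10 -dox in replicates 2 to 4, for the 34 genes (top) and for 7 further gene lists, with 1 point per gene and a bar at each median. Called genes are orange and named, with Hif1a, Epas1, Gbe1, Taldo1 and Plod1 farthest to the right and Slc2a3 and Ddit4 farthest to the left. Vertical scatter within a list has no meaning.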

How the data were processed

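Total RNA (100 ng per array) of JUG2 cells was hybridised to Clariom S arrays, and the authors processed them with the Transcriptome Analysis Console. The values they deposited are log2 signals, 1 for each probe set on each array. How signals were summarized and normalized is not given in the sources used, so differences at low and at saturating signal may be compressed. Precision is limited by how few arrays there are.

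The table held 24834 probe sets, of which 1646 controls were left out and 23188 transcript clusters tested. Platform annotation named 15049 clusters, and 455 were named only by the study's table of called genes. Those names were not used in the counts of gene lists. That table also holds group means, fold changes and p-values of the authors, none of which was used.

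The 4 groups were fitted with limma 3.58.1 in R 4.3.3 on replicates 2 to 4, with both GFP arrays and without replicate 1 of the SOX10 groups, whose Sox10 signals ran against their labels. Benjamini-Hochberg adjustment ran over all clusters. The fitting was tested on simulated data. Calls needed an adjusted p under 0.05 and at least 2-fold. The methods' 0.01 was an alternative, beside quantile normalization, a filter on dim clusters, array weights, an intensity trend and each array left out.

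The methods speak of independent experiments, and nothing ties a replicate number to 1 of them. Arrays of the same number deviated together from their groups, with correlations of 0.194, 0.15 and 0.411 in replicates 2, 3 and 4 between the +dox and -dox deviations, while arrays of different numbers gave -0.282 to 0.171. Each same-number value was over 0.1, the limit used here, but that of replicate 3 lay below the highest value of different numbers. Deviations were taken from the group means, so these correlations do not vary freely of each other. The numbers were therefore treated as a possible pairing. The main fit is unpaired, and a fit with the number as a block was run as well.

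The text names all 34 genes, Sox10, the called genes of each further list, and genes with the smallest adjusted p where fewer were called. Genes beyond that rule (Arnt, Hif1an, Gfap, Ptprc, those whose call turned with the block, and those named only through the study's table) were chosen after their values were seen. The 34 genes, the lists and the choice of replicates were made with earlier results of these data known. Some listed genes are not reported here.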

Additional observations from a re-analysis of the deposited data

Results flagged for a closer look

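Each of the 34 genes was checked for a single array far from the others of its labelled SOX10 group (gap to the nearest array over the range of the group, above Dixon's critical value of 0.829 for 4 arrays). Of 68 groups, 4 held such an array, and chance gives about 5% of groups. Pgk1 had a log2 signal of 14.25 on SOX10 -dox replicate 4, with the nearest SOX10 -dox array at 13.21. Higd1a had 7.65 on SOX10 -dox replicate 4, with the nearest at 6.69. Bhlhe40 had 12.96 on the array labelled SOX10 -dox replicate 1, with the nearest at 13.66. Gpi had 15.42 on the array labelled SOX10 +dox replicate 1, with the nearest at 15.86. The last 2 lie on the arrays whose Sox10 signals went against their labels.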

How the results depend on the processing

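With all 8 SOX10 arrays as labelled, 0 of the 34 genes, 0 transcript clusters and 0 genes of the further lists were called in either direction (main values 1 higher and 2 lower, 525 higher and 287 lower, 14 higher and 12 lower). At an adjusted p under 0.01, 0 of the 34 genes were higher and 1 was lower, and 308 clusters were higher and 113 lower. Of the further lists 10 genes were then higher and 1 was lower. With 1 array of replicates 2 to 4 left out, 0 to 1 of the 34 genes were higher and 0 to 2 lower. In these fits 333 to 639 clusters were higher and 140 to 324 lower, and 10 to 15 genes of the further lists were higher and 1 to 9 lower. In a comparison chosen after seeing the data, without replicate 4 of both SOX10 groups, 1 of the 34 genes was lower. With the replicate block, 1 of the 34 genes was higher and 3 were lower, and among all clusters 637 were higher and 375 lower. The block changed no call of the 34 genes other than that of Car9. Among lists outside the pathway it added Gusb (-1.05, adjusted p = 0.0237) and Cebpb (-1.04, adjusted p = 0.0184).

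Signs turned only for genes that were not called. With all 8 arrays as labelled, differences were -0.21 for Adm, 0.03 for Hk1, -0.06 for Gpi, -0.18 for Pfkl, -0.16 for Pfkp, -0.10 for Aldoa and -0.10 for Pgk1. Without replicate 4 of both groups they were 0.21 for Bnip3, 0.19 for Higd1a and 0.19 for P4ha1, and with array weights 0.08 for P4ha1. With 1 array left out, they ranged from -0.19 to 0.52 for Adm, from -0.65 to 0.13 for Bnip3, from -0.39 to 0.15 for Higd1a, from -0.12 to 0.08 for Hk1, from -0.09 to 0.37 for Pfkl, from -0.13 to 0.38 for Pfkp, from -0.16 to 0.41 for Pgk1 and from -0.22 to 0.19 for P4ha1. The cause was not tested beyond the arrays that each setting leaves out. Quantile normalization, the filter on dim clusters and the intensity trend changed no call and no sign of the 34 genes they kept. The filter left out Slc16a3.

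The comparison rests on 3 arrays per SOX10 group. It was set after Sox10 was seen to go against the labels of replicate 1. Its calls, that of Sox10 included, are not found with those arrays added as labelled. Effects of doxycycline itself rest on 1 array per GFP group. No gene had more than 1 transcript cluster, so the choice of cluster could not be varied.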

Other observations

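Some genes of the hypoxia and pyruvate lists carry a name only through the study's own table of called genes, and stood outside the counts. They were thus selected for being called in these arrays, and their values are a description. Lox, which encodes a collagen cross-linking lysyl oxidase, had log2 signals of 15.13, 15.09 and 15.07 in SOX10 +dox replicates 2, 3 and 4, against 16.43, 16.33 and 17.11 in SOX10 -dox replicates 2, 3 and 4. Sap30, a subunit of a histone deacetylase complex, had a difference of -0.88, and Pdhx, a subunit of pyruvate dehydrogenase, of 1.03.

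Outside the pathway, 1 of 16 cell cycle genes was called, Tyms (thymidylate synthase), with 14.05, 13.87 and 13.54 in SOX10 +dox cells and 15.17, 15.18 and 14.81 in SOX10 -dox cells (-1.23 ± 0.23, adjusted p = 0.0126). It was called in 3 of the 6 fits with 1 array left out. The median difference of the cell cycle list was -0.55. None of 18 genes of amino acid and unfolded protein stress was called by limma, with a median difference of -0.49. At an unadjusted p under 0.05, 6 of them were lower and 0 higher, beside 7.55% lower and 7.23% higher of all transcript clusters. The 12 housekeeping genes, of which none was called by limma, had a median difference of -0.37. Of these, 2 were lower at an unadjusted p under 0.05, beside the same 7.55% of all transcript clusters.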
